A study of Mus musculus with 74 samples.

Results

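The genes described here are 10 genes of MHC class II antigen presentation and of the cells that perform it, namely H2-Aa, H2-Ab1, H2-Eb1, Cd74, H2-DMa, H2-DMb1, Ctss, Ciita, Cd86 and Flt3. They were chosen by name and looked up in each of 6 comparisons of lung metastases (Lung met) with primary mammary tumors (PT). All 10 had values among the 18208 genes compared in Her2, the 19320 in C3Tag, the 17905 in Myc and the 17829 in a PyMT-F1 comparison named for AKR. In BALB 7 of the 10 had values among 17270 genes, since H2-DMb1 and Flt3 had no row and H2-Eb1 had a row without values. In SEAGN 8 of the 10 had values among 17351 genes, again without a row for H2-DMb1 and Flt3.

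RNA-seq was performed on pieces of bulk tissue from 74 samples, with 6 PT and 6 Lung met samples per model and 7 of each in C3Tag, going by the sample labels. The study's own sample list holds more C3Tag PTs, and which of them entered that comparison is not known here. The FVB driver models carried rat neu (Her2) or Myc under the mouse mammary tumor virus promoter (MMTV), or SV40 T antigen under the C3(1) promoter (C3Tag), in female offspring of transgenic males and wild-type FVB/NJ females. The PyMT-F1 models were female offspring of FVB males carrying MMTV-PyMT and wild-type BALB/cJ (BALB), SEA/GnJ (SEAGN) or AKR/J (AKR) females, so that every animal of these crosses was FVB on 1 side. All primary tumors of an animal were pooled into 1 PT sample, while metastases were used whole. In Her2, C3Tag and Myc, tumors of animals with a single lesion were removed by surgery when small, after which the animals were aged further. PyMT-F1 animals were taken at or near endpoint. PT and Lung met can therefore differ in collection time in the driver models, and which sampled animals had surgery was not analysed here. Ages were not analysed here.

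All values in the comparisons are group means, ratios and p-values made by the authors, and none belongs to a single sample. The depth of each library and the spread between animals are therefore unknown here. Each ratio comes with a p-value, which measures neither the error nor the spread of that ratio. Metastasis-specific gene expression (MSGE) was called at a p-value under 0.05 with a Benjamini-Hochberg FDR under 0.1 in the driver models and at an FDR under 0.05 in the PyMT-F1 models. The models were normalized separately, so levels of different models are given side by side and their differences were not tested. For Myc only p-values were analysed, so no direction is given. The comparison named for AKR is called AKR-named throughout because its strain is in doubt. Its fold changes equalled, within 0.1%, those listed elsewhere for the cross to C57BL/6J in 272 of 276 genes that could be compared. For any other cross compared at most 2 genes were equal, and the cross to AKR/J was not among those compared. A genotype label also named another strain than the sample name in 23 of the 36 PyMT-F1 samples, and the source label named the other tissue in 16 of the 36. Groups followed the sample names, with which the tissue label was the same in all 36. Which tissue labels the authors' PyMT-F1 comparisons followed was not tested, and the direction of each PyMT-F1 ratio rests on their column names.

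MHC class II molecules are pairs of an alpha and a beta chain that present peptides from endocytosed proteins to CD4+ T cells. The chains assemble around the invariant chain, which cathepsins degrade in the endosome before the DM pair exchanges its remnant for a peptide. Dendritic cells, B cells and many macrophages make class II constitutively, mouse alveolar type 2 cells of the lung also make it, and interferon gamma induces it in other cells through the transactivator Ciita. Ciita does not bind DNA itself but is held by factors on the X and Y boxes of class II promoters, of which the Y box binds NF-Y. In bulk tissue, a lower mean from fewer cells of a type cannot be told apart from less RNA per cell.

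Some promoters of class II chains share a pair of short motifs, and 3 of them are printed for that reason. Capitals mark GNAAC, a part of the X box, and TGATTGG, the Y box core. Each window is the 85 bases 5′ to 3′ on the gene's strand, from RefSeq on GRCm38.p6, and all 3 end before the start of the gene in the annotation. H2-Aa is from chr17:34287849-34287933 on the minus strand, H2-Eb1 from chr17:34305746-34305830 and H2-Ob, the beta chain of the DM inhibitor DO, from chr17:34238786-34238870, both on the plus strand.
H2-Aa: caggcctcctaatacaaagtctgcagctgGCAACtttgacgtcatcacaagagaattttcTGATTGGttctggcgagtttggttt
H2-Eb1: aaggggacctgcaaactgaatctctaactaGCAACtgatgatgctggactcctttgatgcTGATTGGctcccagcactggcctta
H2-Ob: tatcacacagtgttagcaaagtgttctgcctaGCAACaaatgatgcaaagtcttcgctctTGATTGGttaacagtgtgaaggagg

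TGATTGG began 50 bases before the start site in H2-Aa, 61 in H2-Eb1 and 59 in H2-Ob, with 26, 25 and 23 bases between the GNAAC and the TGATTGG. The pair was also found in the promoters of H2-DMb1, H2-Oa and H2-Eb2. Among 32851 mouse promoters of 300 bases, 7.82% held TGATTGG on either strand and 0.426% held GNAAC followed by TGATTGG after 20 to 35 bases. H2-DMb2 held TGATTGG without the pair. Neither TGATTGG nor the pair was found in the promoters of H2-DMa, Ctss and Flt3, and GNAAC alone was not searched for. Promoters of H2-Ab1, Cd74, Ciita and Cd86 were not analysed here. These motifs were chosen after the sequences were seen, and a match describes the letters of the window and not the binding of a factor.

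Across the 45 combinations of a gene and a comparison that gave a ratio, the mean was higher in Lung met in 41 and lower in 4. Without AKR-named it was higher in 31 of 35. Of all genes, the share with the higher mean in Lung met lay between 49.7% in Her2 and 55.3% in BALB. Few of the differences in the 10 genes passed the test. MSGE were called in 3 of 55 combinations with a p-value, namely Ctss in SEAGN and H2-DMa and Ctss in AKR-named, and all 3 rose in Lung met. An unadjusted p-value under 0.05 was found in 17 of the 55, or 9 without AKR-named. The median log2 ratio of the genes with values was 0.45 in Her2, 0.73 in C3Tag, 0.33 in BALB, 0.25 in SEAGN and 0.94 in AKR-named, beside medians over all genes between -0.0013 and 0.030. The genes share their samples, so they are not independent of each other.

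**Figure D1:**
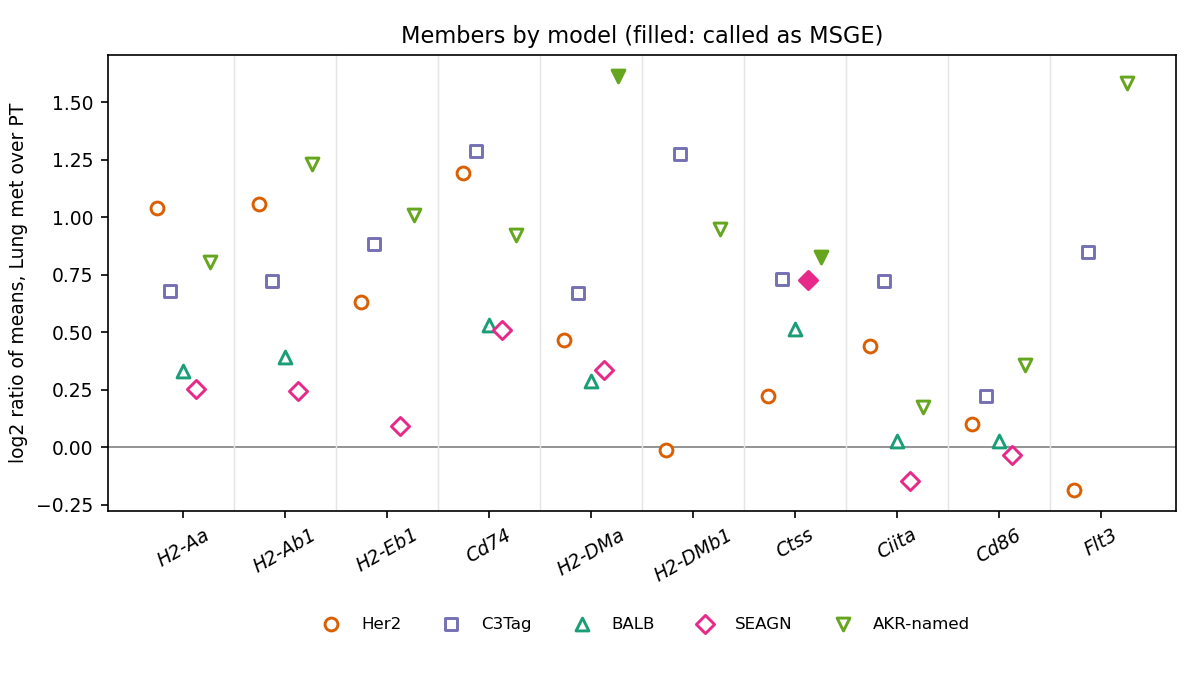
Each point is the log2 ratio of the authors' means, Lung met over PT, for 1 gene in 1 model, with filled points for MSGE calls. The points lie above 0 in 41 of 45 cases, the points for Cd86 lie close to 0, and the 3 filled points are H2-DMa and Ctss in AKR-named and Ctss in SEAGN.

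The counts of each model are read against the share of all genes. In Her2 none of 10 genes was called by Gene Specific Analysis, where 1.62% of all genes were, while 6 of 10 had an unadjusted p-value under 0.05 against 9.75% of all genes, all 6 with the higher mean in Lung met. In C3Tag none of 10 was called against 1.93% of all genes, and 1 of 10 had an unadjusted p-value under 0.05 against 13.0%. In Myc none of 10 was called against 0.268%, and 0 of 10 had an unadjusted p-value under 0.05 against 3.86%. In BALB the DESeq2 comparison called none of 7 against 2.84%, and 0 of 7 had an unadjusted p-value under 0.05 against 12.2%. In SEAGN 1 of 8 was called against 10.9%, and 2 of 8 had an unadjusted p-value under 0.05 against 22.9%. In AKR-named 2 of 10 were called against 7.69%, and 8 of 10 had an unadjusted p-value under 0.05 against 19.7%. The share with an unadjusted p-value under 0.05 was thus several-fold that of all genes in Her2 and AKR-named. In C3Tag and SEAGN it was close to that of all genes, and in Myc and BALB no member reached it.

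The chains of the A molecule, H2-Aa (chr17:34282744-34287823, GRCm38) and H2-Ab1 (chr17:34257689-34269419), are neighbors and had similar ratios to each other within each model except AKR-named. In Her2 the mean of H2-Aa was 1230 in PT and 2529 in Lung met, a ratio of 2.06 (FDR = 0.247). In Her2 H2-Ab1 stood at 1169 and 2433, a ratio of 2.08 (FDR = 0.173). Both genes therefore had about doubled means that missed the FDR threshold. In C3Tag the mean of H2-Aa was 1758 in PT and 2813 in Lung met (ratio 1.60, FDR = 0.561), and that of H2-Ab1 was 1309 and 2157 (ratio 1.65, FDR = 0.559). In BALB H2-Aa had means of 457 and 574 (ratio 1.26, FDR = 0.843) and H2-Ab1 of 395 and 519 (ratio 1.31, FDR = 0.784). In SEAGN the ratios were 1.19 for H2-Aa, with means of 517 and 616, and 1.18 for H2-Ab1, with means of 483 and 571 (FDR = 0.435 and 0.495). The ratios of both genes were thus smaller in BALB and SEAGN than in Her2 and C3Tag, a difference that was not tested. In AKR-named H2-Aa went with means of 3179 and 5549 (ratio 1.75, FDR = 0.215) and H2-Ab1 with 2077 and 4875 (ratio 2.35, FDR = 0.0806). In Myc the unadjusted p-values were 0.369 for H2-Aa and 0.326 for H2-Ab1.

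H2-Eb1 (chr17:34305867-34316674), the beta chain of the second class II molecule, E, stood at very different levels in the models. Its mean was 40.9 in PT and 63.3 in Lung met of Her2 (ratio 1.55, FDR = 0.448), and 22.7 and 41.9 in C3Tag (ratio 1.84, FDR = 0.654). In SEAGN it was 173 and 184 (ratio 1.07, FDR = 0.856), and in AKR-named 1404 and 2828 (ratio 2.02, FDR = 0.144). In Myc its unadjusted p-value was 0.472. Its alpha chain partner, H2-Ea, is a gene that only some inbred strains can turn into protein. The reference annotation lists its identifier as a polymorphic pseudogene, H2-Ea-ps (chr17:34341959-34344645). The mean of H2-Ea was 24.4 in PT and 55.8 in Lung met of Her2 (ratio 2.28, FDR = 0.242), 28.0 and 31.5 in C3Tag (FDR = 0.631), and 17.5 and 27.1 in AKR-named (FDR = 0.436). It had no row in BALB and SEAGN.

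Set against H2-Aa of the same samples, the E chain differed between models far more than the A chains did. The mean of H2-Ab1 was 65.3% to 96.2% of that of H2-Aa in all 5 models and both tissues. The mean of H2-Eb1 was 3.33% of that of H2-Aa in PT and 2.50% in Lung met of Her2, and 1.29% and 1.49% in C3Tag, both pure FVB. In the crosses it was 33.4% and 29.9% in SEAGN and 44.2% and 51.0% in AKR-named. FVB mice carry the H2 haplotype q, AKR/J mice k and C57BL/6J mice b, and neither q nor b yields an E alpha protein whereas k does. In AKR-named the mean of H2-Ea was 0.550% of that of H2-Aa in PT and 0.488% in Lung met, below the 1.99% and 2.21% of Her2 and the 1.59% and 1.12% of C3Tag. Class II alleles differ in sequence, which can change how many of their reads align, and the part of alignment, annotation and strain in these levels was not tested. SEAGN used the gene models of BALB/cJ, so its percentages also rest on other transcript lengths.

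**Figure D2:**
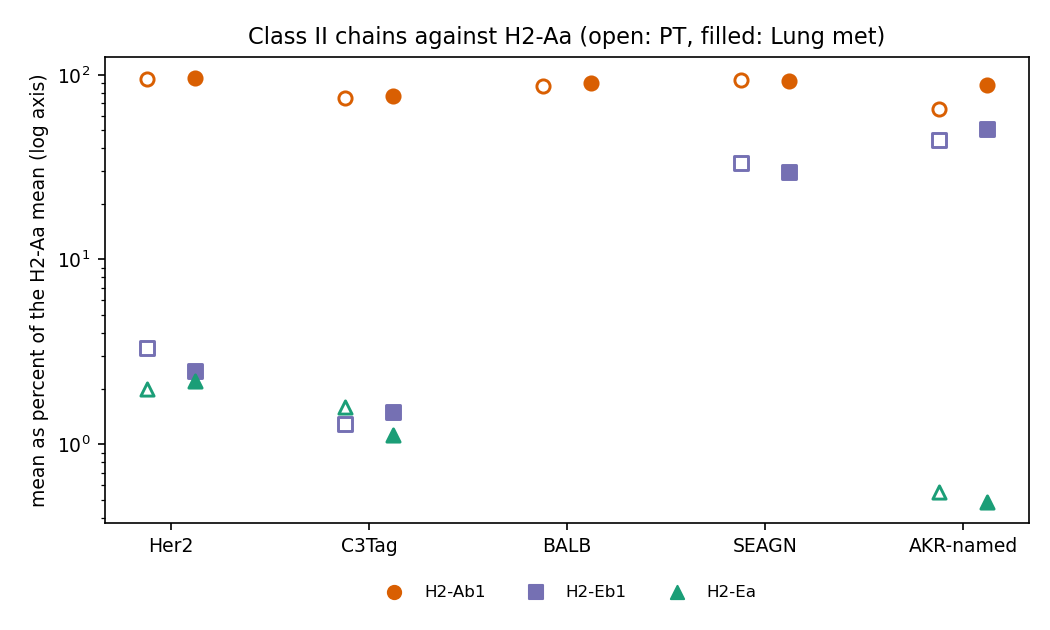
The means of H2-Ab1, H2-Eb1 and H2-Ea are shown as a percent of the H2-Aa mean on a log axis, with open points for PT and filled points for Lung met. H2-Ab1 stays between 65.3% and 96.2%, while H2-Eb1 lies at 3.33% or below in Her2 and C3Tag and at 29.9% or above in SEAGN and AKR-named.

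Cd74 (chr18:60803848-60812652), the invariant chain, had the highest mean of the 10 genes in both tissues of the 5 models with means, except in the PTs of Her2, where Ctss was higher. Its mean was 3827 in PT and 8758 in Lung met of Her2, a ratio of 2.29 (FDR = 0.134). In C3Tag it was 3910 and 9558 (ratio 2.44, FDR = 0.432). The ratio was thus larger in C3Tag, with a larger FDR. In BALB Cd74 had means of 1240 and 1791 (ratio 1.44, FDR = 0.653), and in SEAGN of 1568 and 2232 (ratio 1.42, FDR = 0.0708). In AKR-named its means were 6637 and 12573 (ratio 1.89, FDR = 0.239), and in Myc its unadjusted p-value was 0.296. Cd74 was the member with the largest median log2 ratio after H2-DMb1, at 0.92 over 5 models. No comparison called it.

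**Figure D3:**
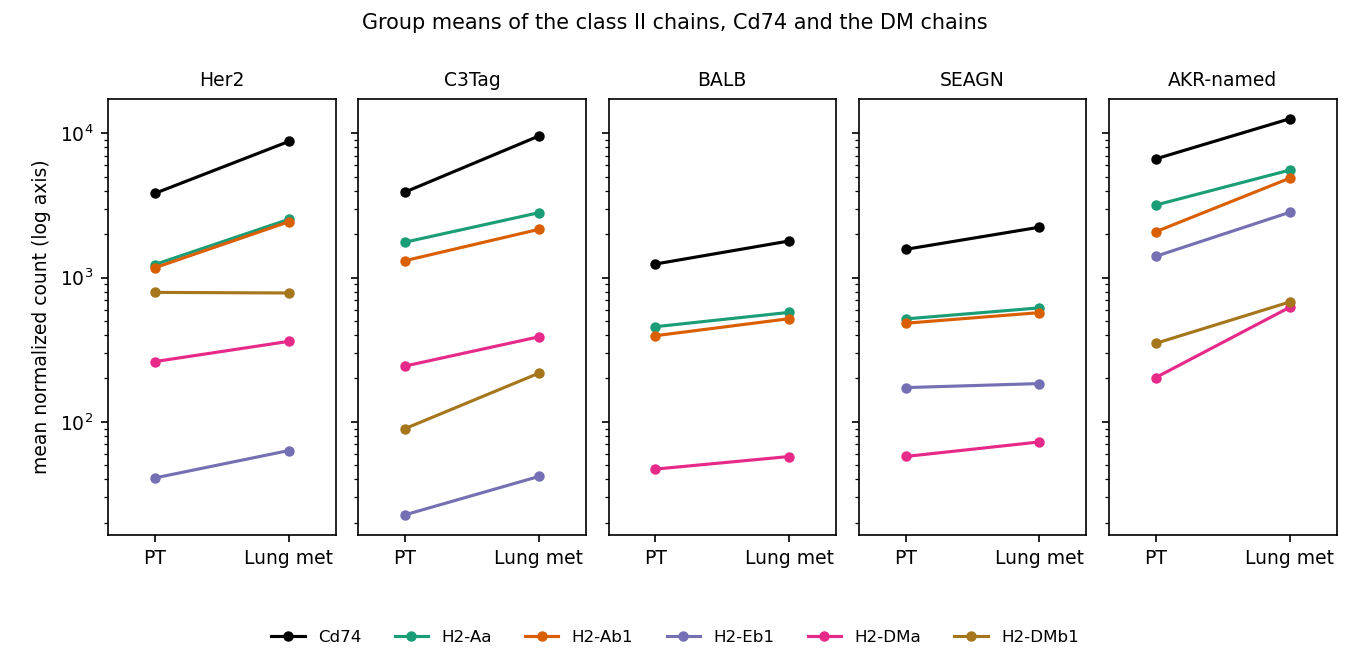
The authors' mean normalized count of each class II chain, Cd74 and the DM chains is joined from PT to Lung met within each model, on a log axis. Lines climb for all genes shown except H2-DMb1 in Her2, and H2-Eb1 lies lowest in Her2 and C3Tag but above both DM chains in AKR-named.

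The DM chains, which load peptides onto class II, included 1 of the 3 calls. In AKR-named H2-DMa (chr17:34119541-34139101) rose from a mean of 203 in PT to 622 in Lung met, a ratio of 3.06 (FDR = 0.0107). Its ratio was 1.38 in Her2, with means of 262 and 361 (FDR = 0.506), and 1.59 in C3Tag, with means of 244 and 389 (FDR = 0.386). In BALB it stood at 47.1 and 57.6 (ratio 1.22, FDR = 0.823), and in SEAGN at 57.6 and 72.7 (ratio 1.26, FDR = 0.347). In Myc its unadjusted p-value was 0.537. H2-DMa was thus called in 1 of 6 comparisons, and a test of its ratio between models was not made.

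H2-DMb1 (chr17:34153072-34160230), the beta chain of DM, has a close copy beside it, H2-DMb2 (chr17:34143307-34151555), and how the counting split reads between them is not given in the sources used here. In Her2 the mean of H2-DMb1 was 789 in PT and 782 in Lung met (ratio 0.991, FDR = 0.967), and that of H2-DMb2 was 494 and 514 (FDR = 0.975). In C3Tag H2-DMb1 had means of 89.9 and 218 (ratio 2.42, FDR = 0.430), and H2-DMb2 of 85.0 and 203 (FDR = 0.271). The copies thus stood close together in C3Tag and less so in Her2, and both had PT means several-fold higher in Her2 than in C3Tag although both models are FVB, a difference that was not tested. In AKR-named H2-DMb1 had means of 350 and 677 (ratio 1.93, FDR = 0.118) and H2-DMb2 of 83.2 and 203 (FDR = 0.0563). In Myc the unadjusted p-values were 0.336 for H2-DMb1 and 0.449 for H2-DMb2.

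Ctss (chr3:95526786-95556403), cathepsin S, makes the last cuts in the invariant chain and was the member called most often. In SEAGN it rose from a mean of 660 in PT to 1094 in Lung met, a ratio of 1.66 (FDR = 0.00884). In AKR-named it rose from 4787 to 8500, a ratio of 1.78 (FDR = 0.0460). Both ratios were under a doubling. In C3Tag the ratio was 1.66 as well, with means of 3736 and 6210, but the FDR was 0.301. In BALB it was 1.43, with means of 499 and 712 (FDR = 0.607), and in Her2 1.17, with means of 4396 and 5130 (FDR = 0.682). In Myc its unadjusted p-value was 0.232, the lowest of the 10 genes there. Ctss is made by macrophages at large, including those with little class II.

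Ciita (chr16:10480059-10528418), the transactivator, was called in no comparison. In Her2 its mean was 246 in PT and 334 in Lung met (ratio 1.36, FDR = 0.430), and in C3Tag 212 and 351 (ratio 1.65, FDR = 0.439). In BALB it was 85.1 and 86.8 (ratio 1.02, FDR = 0.989), in SEAGN 86.0 and 77.7 (ratio 0.903, FDR = 0.595) and in AKR-named 208 and 235 (ratio 1.13, FDR = 0.829). In Myc its unadjusted p-value was 0.253. In Her2, SEAGN and AKR-named the ratio of Ciita was thus below those of H2-Aa, H2-Ab1, H2-Eb1 and Cd74, the genes it acts on. The same held in BALB, where H2-Eb1 had no values. In C3Tag the ratio of Ciita was slightly above those of H2-Aa and H2-Ab1 and below those of H2-Eb1 and Cd74. A test between genes was not made.

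Cd86 (chr16:36603869-36666081), a costimulatory ligand for T cells, had the smallest median log2 ratio of the 10 genes, at 0.10 over 5 models, although in Her2 H2-DMb1 and in AKR-named Ciita had ratios closer to 1. Its ratio lay between 0.977 in SEAGN, with means of 29.6 in PT and 28.9 in Lung met, and 1.28 in AKR-named, with means of 116 and 149. In Her2 its means were 141 and 152 (ratio 1.07), in C3Tag 128 and 149 (ratio 1.17) and in BALB 25.9 and 26.4 (ratio 1.02). The unadjusted p-values lay between 0.194 in AKR-named and 0.924 in BALB, with 0.694 in Myc. No difference in Cd86 was detectable in any of the 6 comparisons.

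Flt3 (chr5:147330741-147400489), the receptor for the growth factor of dendritic cells, was the scarcest of the 10. Its means were 14.9 in PT and 13.1 in Lung met of Her2 (ratio 0.879, FDR = 0.815), 12.6 and 22.6 in C3Tag (ratio 1.80, FDR = 0.646) and 3.90 and 11.7 in AKR-named (ratio 2.99, FDR = 0.141). In Myc its unadjusted p-value was 0.390. Its largest ratio thus rests on the lowest PT mean of any member.

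**Figure D4:**
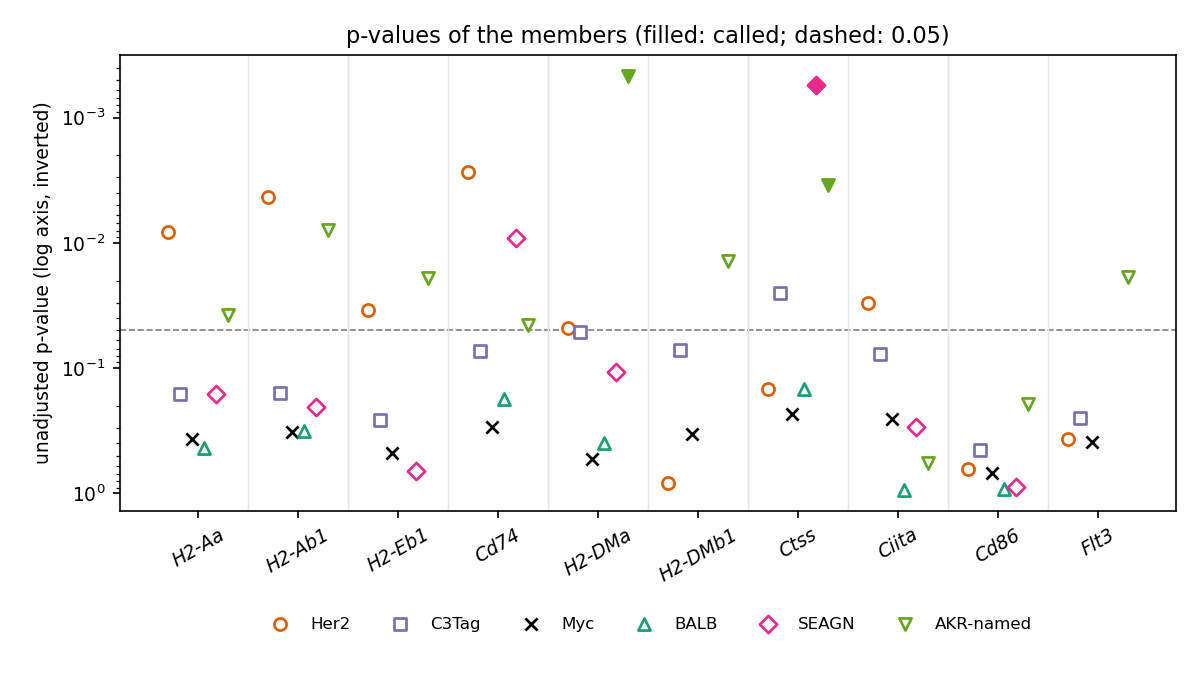
The unadjusted p-value of each gene in each of the 6 comparisons is shown on an inverted log axis, with a dashed line at 0.05, filled points for MSGE calls and crosses for Myc. In total 17 points pass the line, 6 of them in Her2 and 8 in AKR-named, and no cross does.

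Means were divided by the exon length of each gene in GENCODE M21 for the 3 models with means whose gene identifiers are found there. The annotation release the authors used is not given in the sources used here, and some gene names in the comparisons differ from M21, so these lengths are approximate. In PT of Her2 the order was led by Ctss at 3237 per kilobase and Cd74 at 2280, followed by H2-DMb1 at 469, H2-Ab1 at 455 and H2-Aa at 324. Ctss and Cd74 were thus several-fold above the chains themselves. H2-DMa stood at 75.9, Cd86 at 38.6, Ciita at 25.8, H2-Eb1 at 21.1 and Flt3 at 2.41 per kilobase. In C3Tag the PT order was the same but for H2-DMb1, which at 53.5 per kilobase stood below H2-DMa at 70.7. In AKR-named Cd74 led at 3953 per kilobase in PT, ahead of Ctss at 3525, and H2-Eb1 at 722 stood next to H2-Aa at 837 and H2-Ab1 at 809. Whether neighbors in these orders differ could not be tested without values of single samples.

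Among the other genes of the class II pathway, which comprise the remaining chains, the promoter factors, the endosomal proteases and the ligases that remove class II from the surface, MSGE were called in SEAGN and in no other comparison. In SEAGN 3 of 15 were called, all higher in Lung met, against 10.9% of all genes, the largest such share of any comparison. These were the cathepsins Ctsh, from 986 to 1648 (ratio 1.67, FDR = 1.28e-07), and Ctsd, from 5797 to 7721 (ratio 1.33, FDR = 0.00796), and the lysosomal thiol reductase Ifi30, from 316 to 445 (ratio 1.41, FDR = 0.0202). All 3 act on proteins in the endosome, and Ctsh is also a known product of alveolar type 2 cells. None of 19 was called in Her2 and Myc, of 20 in C3Tag and AKR-named and of 14 in BALB. In those comparisons between 0.268% and 7.69% of all genes were called. An unadjusted p-value under 0.05 was found for 2, 0, 3, 6 and 0 in Her2, Myc, C3Tag, AKR-named and BALB. Of all genes, 9.75%, 3.86%, 13.0%, 19.7% and 12.2% had such a p-value there. The median log2 ratio of these genes was 0.074 in Her2, 0.15 in C3Tag, 0.10 in BALB, 0.038 in SEAGN and 0.24 in AKR-named, lower than the medians of the 10 genes in each model.

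The chains of DO, the DM inhibitor found mostly in B cells, were low. H2-Oa had means of 15.4 in PT and 13.7 in Lung met of C3Tag (FDR = 0.887) and 8.20 and 20.1 in AKR-named (FDR = 0.199), with no row elsewhere. H2-Ob had means of 45.4 and 71.6 in Her2 (FDR = 0.662), 39.5 and 42.3 in C3Tag (FDR = 0.523), 4.34 and 4.16 in SEAGN (FDR = 0.969) and 17.1 and 33.4 in AKR-named (FDR = 0.163), and in Myc its unadjusted p-value was 0.347. H2-Eb2 had no row in any comparison. The factors that hold Ciita to the promoter gave no call. Rfx5 had log2 ratios of 0.077 in Her2, -0.078 in C3Tag, -0.0073 in BALB, 0.028 in SEAGN and -0.22 in AKR-named, and in no comparison did any of Rfx5, Rfxap, Rfxank, Nfya, Nfyb, Nfyc and Creb1 have an unadjusted p-value under 0.05.

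The interferon gamma pathway, which induces Ciita, gave 1 call among 12 genes in C3Tag, 2 among 11 in SEAGN and 1 among 12 in AKR-named. Of all genes, 1.93%, 10.9% and 7.69% were called there. The other comparisons had no call. In them 1 of 12 in Her2, 1 of 12 in Myc and 1 of 11 in BALB had an unadjusted p-value under 0.05. Of all genes, 9.75%, 3.86% and 12.2% had such a p-value there. The kinase Jak2 rose in C3Tag, from 1100 to 1731 (FDR = 0.0389), and in SEAGN, from 371 to 519 (FDR = 0.00332). The receptor chain Ifngr2 fell in SEAGN, from 528 to 398 (FDR = 0.0135). The chemokine Cxcl10 rose in AKR-named, from 22.6 to 104 (FDR = 0.0245). Ifng itself had no row in any comparison. The median log2 ratio of the list was 0.030 in Her2 and 0.76 in AKR-named, the lowest and the highest of the 5 models.

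Of the other genes of T cell costimulation and inhibition, MSGE were 1 of 7 in C3Tag and 3 of 5 in AKR-named. Of all genes, 1.93% and 7.69% were called there. The other comparisons had no call. In Her2 2 of 5 had an unadjusted p-value under 0.05, against 9.75% of all genes, and none did in Myc, BALB and SEAGN. In AKR-named Cd274 (PD-L1) rose from 55.2 to 179 (ratio 3.25, FDR = 0.00530), Cd40 from 24.8 to 74.1 (ratio 2.99, FDR = 0.0118) and Tnfsf9 from 33.1 to 78.0 (ratio 2.36, FDR = 0.0322). In C3Tag Tnfsf4 rose from 1.58 to 10.5 (FDR = 0.0328), both low means. Cd86 was thus not called in the 2 comparisons where genes of this list were.

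Dendritic cell markers did not move alike. The mean in Lung met was higher for 5 of 11 in Her2 and 9 of 10 in C3Tag. It was higher for 1 of 4 in BALB, 2 of 7 in SEAGN and 12 of 12 in AKR-named. Their median log2 ratio was -0.011 in Her2, 0.55 in C3Tag, -0.26 in BALB, -0.038 in SEAGN and 0.93 in AKR-named. The gene called most often was Clec9a, a receptor for dead cells on the cross-presenting subset. It rose in C3Tag from 13.9 to 79.5 (ratio 5.73, FDR = 0.0153), in BALB from 4.90 to 24.1 (ratio 4.91, FDR = 0.00151), in SEAGN from 5.70 to 31.2 (ratio 5.47, FDR = 2.42e-07) and in AKR-named from 11.9 to 91.4 (ratio 7.68, FDR = 4.76e-04). In Her2 its means were 23.2 and 46.6 (FDR = 0.332). Other markers of that subset differed from Clec9a. Xcr1 stood at 22.0 in PT and 19.6 in Lung met of Her2, 11.1 and 11.5 in C3Tag and 3.56 and 4.90 in SEAGN. It was called only in AKR-named, where it rose from 4.98 to 23.3 (FDR = 0.00422). Batf3, its transcription factor, likewise rose in AKR-named, from 16.8 to 56.8 (FDR = 0.0156). Itgax (CD11c), which alveolar macrophages share with dendritic cells, rose in Her2 from 309 to 658 (ratio 2.13, FDR = 0.0271) and in AKR-named from 524 to 1154 (ratio 2.20, FDR = 0.00980). The chemokine Ccl22 rose in AKR-named from 11.3 to 91.6 (FDR = 2.54e-04), and Fscn1, which tumor cells can also express, fell in SEAGN from 248 to 80.4 (FDR = 8.08e-04). In all, 1 of 11 dendritic cell genes was called in Her2, 1 of 10 in C3Tag and 0 of 11 in Myc. Of all genes, 1.62%, 1.93% and 0.268% were called there. In Myc 2 had an unadjusted p-value under 0.05, against 3.86% of all genes. In BALB 1 of 4 was called, in SEAGN 2 of 7 and in AKR-named 5 of 12, against 2.84%, 10.9% and 7.69% of all genes.

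Leukocyte markers also had medians above 0 in each model with means, the lowest in Her2. The median log2 ratio of 6 pan-leukocyte genes was 0.12 in Her2, 0.59 in C3Tag, 0.32 in BALB, 0.54 in SEAGN and 0.95 in AKR-named, and their summed mean went from 3213 in PT to 3536 in Lung met of Her2 but from 2975 to 5736 in AKR-named. Relative to these markers, the median of the 10 genes was 0.34 in Her2, 0.14 in C3Tag, 0.012 in BALB, -0.29 in SEAGN and -0.018 in AKR-named. Of the 3 calls, H2-DMa in AKR-named lay at 0.66 and Ctss in SEAGN at 0.19 on that scale, and Ctss in AKR-named at -0.13. Ptprc (CD45) was called in AKR-named, from 511 to 998 (FDR = 0.0436), together with Coro1a and Cd52, and Cd52 was also called in SEAGN.

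Markers of lung cells were called in every comparison, also where no member was. The counts below stand beside calls in 1.62% of all genes in Her2, 1.93% in C3Tag and 0.268% in Myc. In BALB 2.84% of all genes were called, in SEAGN 10.9% and in AKR-named 7.69%. An unadjusted p-value under 0.05 was found for 9.75% of all genes in Her2, 13.0% in C3Tag, 12.2% in BALB and 22.9% in SEAGN. Among alveolar type 2 markers 3 of 5 were called in Her2, 3 of 4 in C3Tag, 3 of 5 in Myc, 4 of 5 in BALB, 5 of 5 in SEAGN and 4 of 5 in AKR-named, all of those with a direction higher in Lung met. The type 2 marker Lamp3, which mature dendritic cells also make, went from 18.6 to 680 in Her2, from 31.7 to 7280 in C3Tag, from 3.12 to 187 in BALB, from 3.70 to 577 in SEAGN and from 140 to 3428 in AKR-named. Sftpc, the defining surfactant gene of type 2 cells, had no row in any comparison. Called type 2 genes were thus higher in every model with means, including BALB. Of 5 alveolar type 1 markers 2 were called in Myc and 4 in each other comparison, and of 6 endothelial markers 1 each in Her2 and Myc, 2 in BALB, 3 in C3Tag, 4 in SEAGN and 6 in AKR-named, again all higher in Lung met where a direction was given. For alveolar macrophages, Chil3 rose in Her2 from 10.0 to 572 (FDR = 0.00269) and in SEAGN from 6.27 to 349 (FDR = 1.34e-31), and Ear2 rose in C3Tag from 20.3 to 1227 (FDR = 0.00460) and in AKR-named from 40.8 to 804 (FDR = 5.24e-05). Siglecf, a surface receptor of alveolar macrophages and eosinophils, rose in Her2 from 2.77 to 17.7 (FDR = 0.0400), in C3Tag from 6.60 to 90.3 (FDR = 0.0341) and in AKR-named from 5.99 to 57.0 (FDR = 3.85e-05). Macrophage markers at large were mixed across models. The mean in Lung met was higher for 3 of 10 in Her2, 8 of 10 in C3Tag and AKR-named and 6 of 10 in BALB and SEAGN. In Her2 6 of the 10 had an unadjusted p-value under 0.05, 5 of them lower in Lung met and 1 higher. Lyz2, which type 2 cells share, rose in C3Tag, BALB, SEAGN and AKR-named, with ratios between 4.12 and 5.58. Cd68 rose in AKR-named from 657 to 1469 (FDR = 0.0224). Its ratio was 1.05 in Her2 and between 1.52 and 1.57 in C3Tag, BALB and SEAGN, without a call. Mrc1 fell in Her2 from 1275 to 408 (FDR = 0.0271). It was not called elsewhere, with ratios of 1.73 in C3Tag, 0.768 in BALB, 0.758 in SEAGN and 1.65 in AKR-named. Csf1r was not called, with ratios close to 1 in BALB, SEAGN and AKR-named, 0.756 in Her2 and 1.20 in C3Tag. B cell markers with values numbered 1 to 5 per comparison, of which Cd22 rose in SEAGN and AKR-named, and Cd79b in AKR-named from 9.40 to 71.2 (FDR = 0.00459). T cell markers were called in AKR-named, where Cd3d, Cd3g and Lck rose among 6 with values, and in no other comparison, with 1 gene in SEAGN at an unadjusted p-value under 0.05. Fibroblast genes were called lower for 1 of 6 in Her2, 4 in BALB, 5 in SEAGN and 1 in AKR-named, with 1 call without a direction in Myc. In C3Tag none was called, 3 of 6 had the higher mean in Lung met and 1 had an unadjusted p-value under 0.05. Of the tumor epithelium markers none was called, with 1 in Her2 and 1 in BALB at an unadjusted p-value under 0.05. The part of lung tissue, leukocytes or stroma in the values of the 10 genes was not tested.

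**Figure D5:**
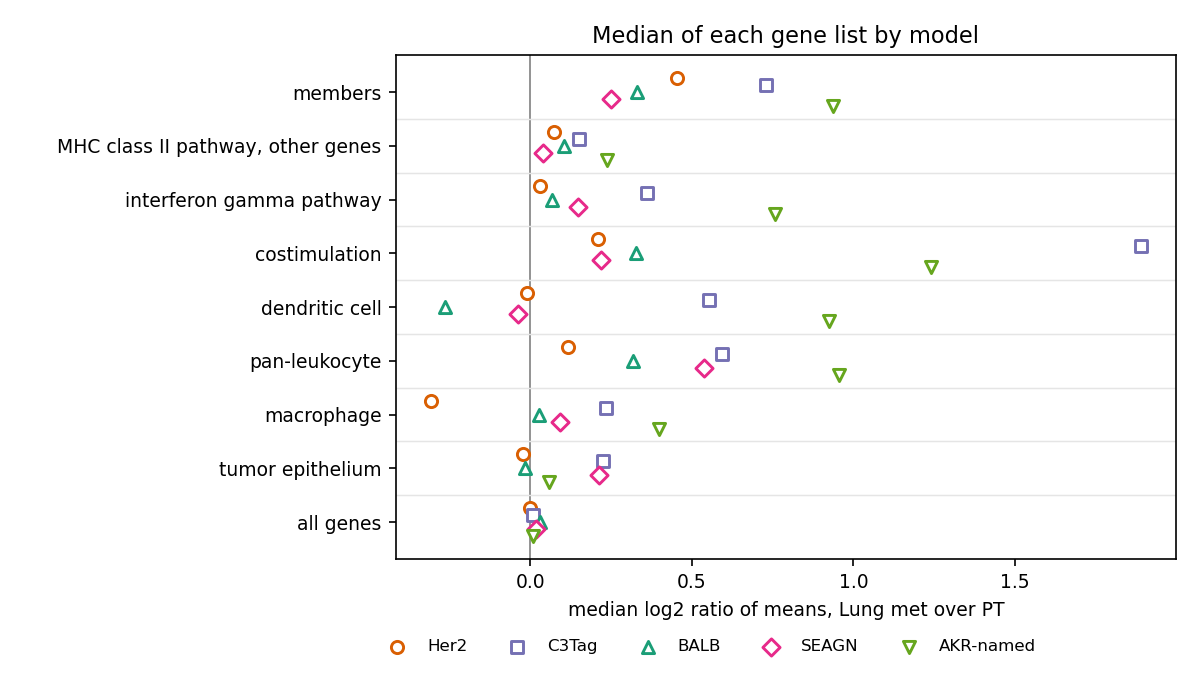
Each point is the median log2 ratio of the authors' means, Lung met over PT, over the genes of 1 list with values in 1 model. The 10 genes lie between 0.25 and 0.94, pan-leukocyte markers between 0.12 and 0.95, tumor epithelium between -0.022 and 0.23, and all genes within 0.030 of 0.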

How the data were processed

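RNA-seq of PT and Lung met tissue was aligned, counted per gene and normalized by the authors in Partek Flow. Tissues were compared by the authors within each model, with DESeq2 in the PyMT-F1 crosses and Gene Specific Analysis in the others. The methods name mm9 and mm10 in different places, the submitters' notes list mm39 and STAR 2.7.8a, and the BALB and SEAGN genes carry BALB/cJ identifiers. The deposited p-value and FDR of each gene, the ratio of Lung met over PT made by the authors, and the group means, treated as a signal deposited by the authors without SD or n, were read from 6 comparisons. The ratio equals the quotient of both means. These columns are the authors' own comparisons, because no value of a single sample was analysed. The signed fold change was used only to compare AKR-named with the cross to C57BL/6J. Depth is unknown, so no interval was computed.

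The Benjamini-Hochberg FDR was recomputed over all genes with a p-value in a comparison and tested on simulated data. It equalled the deposited FDR. No pseudocount entered the main log2 ratios. PT and Lung met carry the same animal numbers within a model, and whether the authors' tests used this pairing is not given in the sources used here. Coordinates and exon lengths are from GENCODE M21 on GRCm38, which is not shown to be the authors' annotation, and promoters from RefSeq. Named genes are all 10 members, other class II pathway genes that were called or encode a chain, and called genes of the other lists, at most 4 per list and comparison by smallest p. Rfx5 and its partners, Xcr1, Lamp3, Csf1r and Sftpc were named besides these in some comparisons after their values were seen. Members and lists were chosen with earlier results of these data known. Alternatives were other thresholds, a mean of at least 10, centring on all genes or on leukocyte markers, a pseudocount of 1, and the members without Cd86 and Flt3. Python 3.11.15, numpy 2.4.6, pandas 2.3.3, scipy 1.17.1 and matplotlib 3.10.9 were used.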

Additional observations from a re-analysis of the deposited data

How the results depend on the processing

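Calls among the 10 genes were 0 in Her2, C3Tag, Myc and BALB under every threshold tried. In SEAGN the 1 call became 2 at an FDR under 0.1, and 0 when a doubling was required or with the Bonferroni correction. In AKR-named the 2 calls became 3 at an FDR under 0.1, 1 when a doubling was required and 0 with the Bonferroni correction. Keeping genes with a mean of at least 10, or using the deposited FDR, left each number of calls as it was. Centring on pan-leukocyte markers moved the median log2 ratio of the 10 genes to 0.34 in Her2, 0.14 in C3Tag, 0.012 in BALB, -0.29 in SEAGN and -0.018 in AKR-named, and of the 3 calls Ctss in AKR-named turned to -0.13 while H2-DMa in AKR-named stayed at 0.66 and Ctss in SEAGN at 0.19. By construction this removes the shift of those markers. On that scale 7 of 10 genes in Her2, 9 of 10 in C3Tag and 4 of 7 in BALB stayed higher in Lung met. In SEAGN 1 of 8 did, and in AKR-named 4 of 10. Centring on all genes turned Cd86 and Ciita in BALB, whose log2 ratios were 0.027 and 0.029, to the lower side. A pseudocount of 1 and leaving out Cd86 and Flt3 moved no median by over 0.1. No paired analysis was possible because no values of single samples were analysed, although PT and Lung met share animal numbers, and for the same reason no sample could be left out in turn. Depth per sample is unknown, so a missed call in a scarce gene such as Flt3 cannot be weighed against counting error.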
